A study of Mus musculus with 6 samples.

Results

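The endothelial cells of the mouse fetal gonad, the cells that line its blood vessels, were examined in single cell mRNA data from gonads of control XY, control XX and dKO XY embryos. A cell was counted as endothelial if it had more than 2500 and fewer than 9000 detected genes, under 25% of UMIs from mitochondrial genes and under 20% from *Hbb* genes (a UMI, or unique molecular identifier, stands for 1 captured mRNA molecule), at least 1 UMI of at least 4 of the 6 vascular genes *Pecam1*, *Cldn5*, *Cd93*, *Flt1*, *Esam* and *Plvap*, and fewer than 5 UMIs of the pericyte gene *Rgs5*. The rule kept 991 cells, 2.52% of the 39350 cells that passed the filter on genes and UMI shares, out of 68064 barcodes in all. Control XY gave 95 and 140 cells, dKO XY 271 and 143, and control XX 223 and 119.

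The gonads came from E15.5 embryos on a C57BL/6 background. Control XY and control XX carried *Amh* +/+ and *Inhbb* +/+, and dKO XY carried null alleles of both genes in every cell (*Amh* -/- with *Inhbb* -/-), so that the testis lacked anti-Müllerian hormone and the βB subunit of activin B. Each group had 2 libraries from the 10x Genomics platform, described as biological replicates; the gonad pair of an animal was pooled, dissociated and frozen before capture, and how many embryos entered a library is not given in the sources used here. The comparison of dKO XY with both controls asks whether endothelial cells of the XY gonad without the 2 ligands resemble those of a testis or of an ovary.

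Blood vessels reach the early XY gonad by migration of endothelial cells from the neighbouring mesonephros, which build the coelomic artery and divide the tissue into the domains of the testis cords. Vessels of the fetal ovary form a looser network. Endothelial cells respond to VEGF through *Kdr* and *Flt1*, to angiopoietins through *Tie1* and *Tek*, and to TGF-β family ligands through *Eng*, *Acvrl1* and *Bmpr2*, while Notch ligands such as *Dll4* set arterial fate and *Nr2f2* sets venous fate. Capillaries of different organs differ in the carriers, lipid-handling proteins and matrix that they make.

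The targeted genes were read first. Levels are in CPM, the UMIs of a gene scaled to the same total in every library. In the UMIs summed over the endothelial cells of a library, *Amh* (chromosome 10, 80805243-80807648, GRCm38) stood at 11.4 and 53.8 CPM in control XY, 6.68 and 7.90 for dKO XY and 0.120 and 0.208 for control XX. In all other cells that passed the filter it stood at 104 and 178 CPM in control XY, 9.15 and 11.3 for dKO XY and 0.866 and 0.493 for control XX. *Inhbb* stood at 1.39 and 6.84, 5.27 and 7.40, and 3.83 and 2.29 CPM in endothelial cells of the same order of libraries, and at 19.7 and 32.1, 12.1 and 18.1, and 25.7 and 8.50 CPM in all other cells. The parts removed by the null alleles are not given in the sources used here, so a 3′ read can come from a null allele, and *Inhbb* checks no label. Endothelial *Amh* was lower than that of the other cells in every library.

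The cells chosen were vascular by genes the rule did not use. *Cdh5*, the cadherin of endothelial junctions, had a UMI in 93.7% to 100% of the endothelial cells of a library, the VEGF receptor *Kdr* in 93.0% to 100%, the angiopoietin co-receptor *Tie1* in 89.5% to 97.3% and the transcription factor *Erg* in 69.5% to 81.2%. Among all other cells *Tie1* had a UMI in 0.579% to 1.24% and *Erg* in 0.431% to 0.825%. *Kdr* was less exclusive, since it had a UMI in 24.97% and 27.97% of the other cells of control XX, as was *Cdh5* with 27.7% and 27.4% of the other cells of control XY. As all genes of these cells share their libraries with the rule, these shares describe the cells and no test was made of them.

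All 6 rule genes were found in 823 cells (83.0%), exactly 5 in 128 and exactly 4 in 40. Just outside the rule, 138 cells held 3 of the 6 genes and fewer than 5 *Rgs5* UMIs, and 31 cells were left out for *Rgs5* alone. Among the cells with 3 rule genes, 7 to 47 in a library, *Tie1* had a UMI in at most 30.0% in any library. Other endothelial genes reached further. *Cdh5* had a UMI in 70.0% of the 10 such cells of control XX 2, where their median depth was 10343.5 UMIs, and in 14.3% to 42.3% of these cells in the other libraries. *Egfl7* had one in at least 42.9% of them in every library, against 27.6% to 36.9% of all other cells. Whether some of the cells just outside are endothelial was not tested. The rule genes themselves ranged from 460 to 597 CPM for *Pecam1* and from 286 to 484 CPM for *Plvap* over the 6 libraries. *Rgs5* remained at 0.208 to 4.46 CPM.

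Of 2702 genes at 50 CPM or more in the endothelial cells of every library, 109 were at least 10-fold above all other cells in each of the 6 libraries. *Gpihbp1*, which anchors lipoprotein lipase on capillaries, led with a ratio of at least 332 in each library, before *Fam167b* (293), the lymphocyte and endothelial GTPase gene *Gimap4* (272), *Tie1* (244) and *Adgrl4* (241). The SOX factors *Sox17* (179) and *Sox7* (159), the endothelial adhesion molecule *Icam2* (212), the Notch-modifying glycosyltransferase *Mfng* (170) and the collagen receptor subunit *Itga2* (132) were among the leading 20, of which 3 were rule genes. The levels describe cells chosen by the rule and were not tested.

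**Figure D1:**
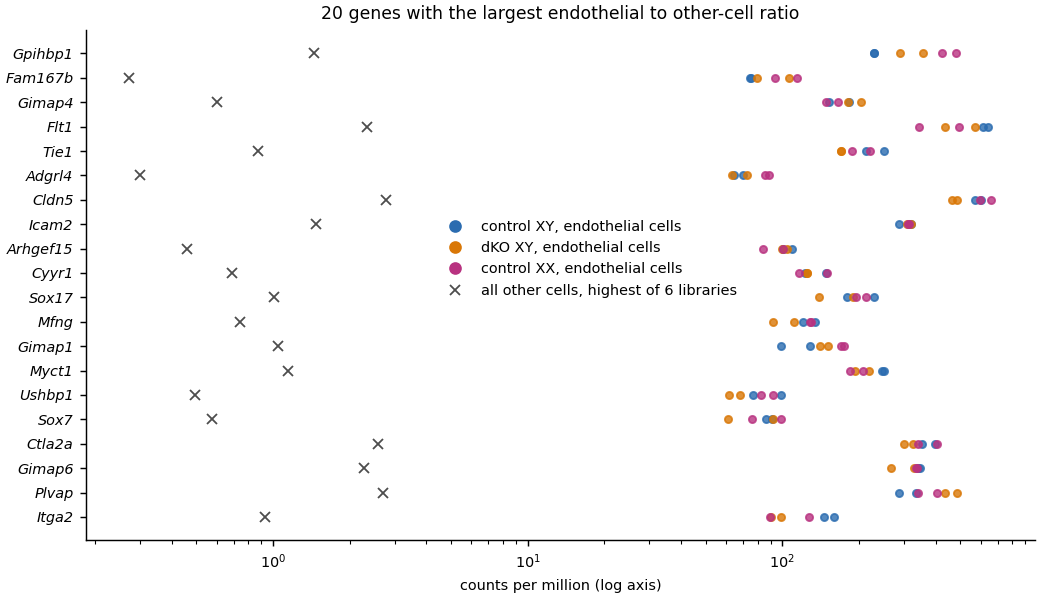
Level of the 20 genes with the largest ratio between endothelial and all other cells, in CPM on a log axis; each dot is the endothelial cells of 1 library (blue control XY, orange dKO XY, magenta control XX) and each cross the highest of the 6 libraries in all other cells. *Cldn5*, *Flt1* and *Plvap* are genes of the rule; the levels of *Sox7* start at 61.3 CPM, and its cross is at 0.576 CPM.

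The libraries differed in depth and in transcripts of other cells. The endothelial cells of a library held from 3586908 UMIs (control XY 1) to 11384436 UMIs (dKO XY 1), with medians of 25507 to 42434 UMIs per cell. No barcode of an endothelial cell was shared between libraries, against 175 among all cells that passed. At least 2 UMIs of each of 3 or more markers of another cell type were found in 218 of the 991 cells, 18.9% and 35.7% in control XY, 23.6% and 34.3% for dKO XY and 9.87% and 12.6% for control XX. Interstitial markers accounted for 117 such cells, Leydig markers for 61, Sertoli markers for 53 and granulosa markers for 40 (a cell can count under several). Each comparison was therefore also made on the 773 cells without them. Erythroid markers were not among those counted, so no cell was removed for haemoglobin RNA.

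Summed over 6 Leydig markers, the endothelial level was 399 and 781 CPM in control XY, 684 and 1004 for dKO XY and 4.79 and 3.54 for control XX, against 8021 and 8356, 3898 and 4926, and 57.7 and 24.4 in the other cells. Removing the 218 cells left 88.4 and 105 CPM, 57.7 and 76.5 CPM, and 3.35 and 3.78 CPM. The 6 germ cell markers summed to 5.85 and 2.68 CPM in control XY, 108 and 68.6 for dKO XY and 14.6 and 10.4 for control XX. The 6 erythroid markers, led by haemoglobin genes, summed to 16.4 and 34.1, 479 and 341, and 99.6 and 56.5 CPM. Of the 7 macrophage markers only 2, and of the 6 epithelial markers only 2, passed the filter on low counts, and the lymphatic markers *Lyve1* and *Ccl21a* did not pass it. These levels moved with the groups, and their part in the differences below was not tested beyond the values given without those cells. Genes that respond to tissue dissociation also varied, since 15 early-response and heat-shock genes summed to 4247 CPM in dKO XY 2 and to 7132 to 8538 CPM in the other libraries, and likewise to 4670 against 10707 to 12636 CPM in the other cells.

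**Figure D2:**
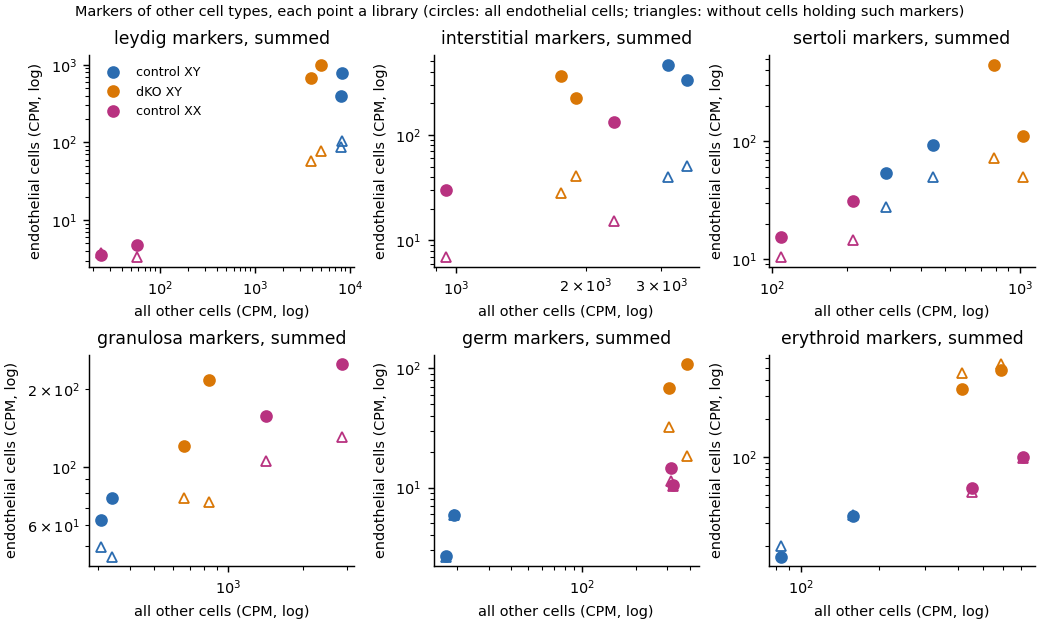
Summed CPM of markers of 6 other cell types in endothelial cells (vertical) against all other cells of the same library (horizontal), both on log axes; circles are all endothelial cells, open triangles those left without the 218 cells with markers of another type, and colours mark the groups. Leydig markers stand at 3.54 and 4.79 CPM in control XX circles and at 399 to 1004 CPM in the XY circles. Erythroid markers were not used to remove cells, so their triangles had no reason to fall, and in dKO XY they are no lower than the circles.

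Endothelial cells made up 1.39% (95% exact binomial interval 1.13 to 1.70) and 1.63% (1.38 to 1.93) of the cells that passed in control XY. In dKO XY they made up 3.32% (2.95 to 3.74) and 2.51% (2.12 to 2.95), and in control XX 4.18% (3.66 to 4.76) and 2.49% (2.07 to 2.97). The intervals cover counting error only. Both dKO XY libraries and both control XX libraries were above both control XY libraries, and those of dKO XY and control XX overlapped. The means were 1.51% ± 0.17 (SD, n = 2), 2.92% ± 0.58 and 3.34% ± 1.20, and the difference of 1.40 percentage points between dKO XY and control XY had an exact two-sided permutation p of 0.333, the smallest that 2 against 2 libraries allow. The share depends on how many other cells were captured: per cell with *Rgs5* and at least 3 further pericyte markers, there were 1.02 and 0.952 endothelial cells in control XY, 2.36 and 1.57 for dKO XY and 8.92 and 2.59 for control XX, from 25 to 147 such pericytes.

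**Figure D3:**
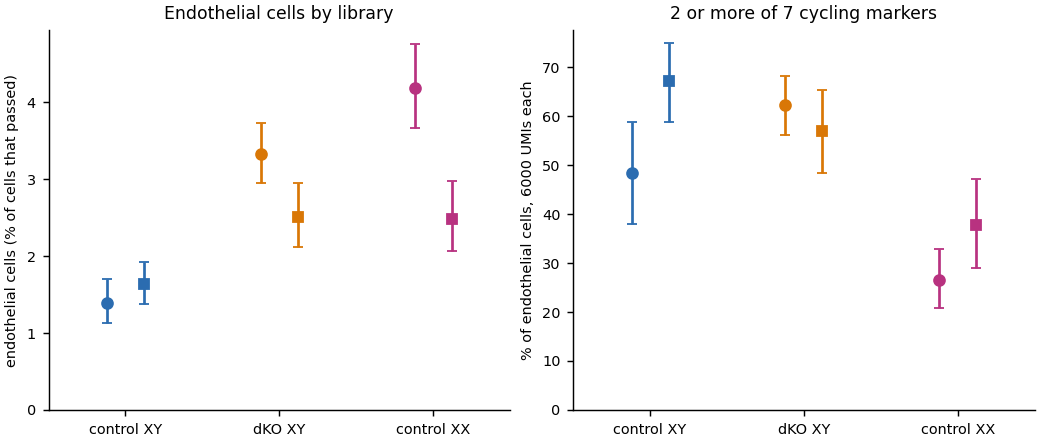
Left, endothelial cells as a percentage of the cells that passed the filter; right, percentage of endothelial cells, each thinned to 6000 UMIs, with a UMI of at least 2 of 7 cycling genes. Circles are library 1, squares library 2 and bars 95% exact binomial intervals; the left panel has control XY at 1.39% and 1.63% below the other 4 libraries, and the right panel has control XX at 26.5% and 37.8% below the other 4.

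Arterial and venous genes were found together in many cells. To compare cells at the same depth, each was thinned at random to 6000 UMIs, which left out 8 shallower cells and kept 983. With 2 or more of 10 arterial genes there were 61.1% and 60.7% of the cells in control XY, 55.2% and 55.6% for dKO XY and 61.6% and 59.7% for control XX. Both dKO XY libraries were below the others (exact permutation p = 0.333 against each control, the smallest allowed), by 5.45 percentage points from control XY, but without cells holding markers of another type the means were 59.2%, 61.9% and 63.5%, so that dKO XY was no longer the lowest. Without thinning the 3 means were 90.6%, 91.4% and 92.1%.

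The arterial genes differed in reach among the cells. The SOX factor *Sox17* had a UMI in 58.2% of thinned endothelial cells and 0.387% of pericytes, the Notch ligand *Dll4* in 25.8% and 0.193%, and the gap junction gene *Gja5*, which marks mature arteries, in 4.78%, against 0.220% of macrophages. *Jag1*, in contrast, was found in 17.4% of endothelial cells and 57.6% of pericytes, and 40.8% of pericytes but 0.881% of macrophages would count as arterial by 2 genes. The receptor of apelin, *Aplnr*, was found in 76.3% of endothelial cells and 1.74% of pericytes, while *Selp* and *Ackr1*, genes of veins that admit leukocytes, were found in 0.203% and 0.712%. Of the 576 cells with 2 or more arterial genes, 428 (74.3%) also had 2 or more of 7 venous genes, against 77.9% of all thinned endothelial cells. Over the cells the arterial and venous counts had a Spearman correlation of -0.22. Exactly at the limit of 2 arterial genes stood 251 of the 576. These numbers describe ranges of marker counts and give no arterial or venous cell type.

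Within that range, cells with 2 or more arterial genes had higher *Mecom* (a mean of 123 against 47.7 CPM in the other endothelial cells), *Notch4* (67.0 against 31.2), *Igfbp3* (352 against 146) and *Glul* (174 against 80.3). *Mecom* is a transcriptional regulator, *Notch4* the endothelial Notch receptor, *Igfbp3* a carrier of insulin-like growth factors and *Glul* glutamine synthetase. Each was higher in every library by at least 1.64-, 1.60-, 1.40- and 1.72-fold. Since the same cells were sorted and measured, this is a description.

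No endothelial cell held more than 2 of the 7 lymphatic genes after thinning. Without thinning, 30.5% and 41.4% of the cells in control XY, 47.6% and 44.8% for dKO XY and 36.3% and 37.0% for control XX had 2 or more. The count thus depends on depth. *Prox1*, which sets lymphatic fate, stood at 3.43 to 6.99 CPM, and 43 of 983 thinned cells (4.37%) had 2 of them, against 0.881% of macrophages and 1.16% of pericytes. *Flt4*, the receptor of VEGF-C, which fetal blood vessels also express, stood at 48.8 to 82.7 CPM.

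Between dKO XY and control XY, 45 of 12223 genes tested (0.368%) differed at an adjusted p under 0.05 (edgeR quasi-likelihood test, Benjamini-Hochberg), 22 higher in dKO XY (0.18%) and 23 lower (0.188%). Among the 23 lower genes were *Aoc3*, *Slc7a5*, *Olfml2a*, *Htra1*, *Mmp2* and *Slco2a1*, and 18 of the 23 were above the level of all other cells in both control XY libraries. Among the 22 higher genes were *Fabp4*, 4 haemoglobin genes and 5 germ cell markers, and 4 of the 22 were above the other cells in both dKO XY libraries. Leaving out 1 library moved the number of calls to 11 (without control XY 2), 25 (without control XY 1) and 180 (without dKO XY 1). On the 773 cells without markers of another type, 93 of 11054 genes were called (0.841%), 39 higher (0.353%) and 54 lower (0.489%), and these included 33 of the 45. Only 7 of the 45 passed under every alternative in which they were tested, namely *Aoc3*, *Olfml2a*, *Slc7a5*, *Hba-a1*, *Hba-a2*, *Hbb-bs* and *Hbb-bt*. For the 4 haemoglobin genes the alternative without cells holding other markers is no check, as erythroid markers were not used to remove cells.

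*Aoc3* (chromosome 11, 101330605-101341938) encodes vascular adhesion protein 1, an amine oxidase of the endothelial surface. It stood at 34.3 and 31.4 CPM in control XY, 5.89 and 4.54 for dKO XY and 19.2 and 12.3 for control XX. The 3 groups did not overlap and dKO XY was the lowest. The log2 difference by edgeR was -2.61 ± 0.24 (standard error, adjusted p = 0.00098) for dKO XY against control XY, -0.99 ± 0.21 (adjusted p = 0.029) for control XX against control XY and -1.63 ± 0.24 (adjusted p = 0.0039) for dKO XY against control XX. Without cells holding other markers the value for dKO XY against control XY was -2.79. The other cells went from 6.61 and 7.45 CPM in control XY to 2.52 and 4.70 for dKO XY, and the difference of endothelial cells was -1.47 apart from theirs, which missed the threshold (adjusted p = 0.088).

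*Slc7a5* (chromosome 8, 121881150-121907694), the light chain of the large neutral amino acid carrier, and its heavy chain *Slc3a2* were both lower. *Slc7a5* stood at 65.5 and 60.8 CPM in control XY, 17.0 and 14.0 for dKO XY and 29.9 and 38.8 for control XX. Its log2 difference between dKO XY and control XY was -2.01 ± 0.19 (adjusted p = 0.0011), with dKO XY below both controls in every library. *Slc3a2* stood at 231 and 222, 131 and 113, and 128 and 122 CPM. Here dKO XY and control XX overlapped, and the log2 difference from control XY was -0.89 ± 0.13 (adjusted p = 0.016) for dKO XY. For *Slc7a5* the difference also exceeded that of the other cells, by -1.76 on the log2 scale (adjusted p = 8.6e-06), and for *Slc3a2* it was -0.26 apart from theirs (adjusted p = 0.50).

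The olfactomedin-like matrix protein gene *Olfml2a* (chromosome 2, 38931978-38963753) stood at 69.1 and 61.3 CPM in control XY, 20.6 and 20.5 for dKO XY and 24.3 and 24.8 for control XX, and at no more than 1.19 CPM in the other cells of any library. Its log2 difference between dKO XY and control XY was -1.66 ± 0.15 (adjusted p = 0.00098), and the test of the same difference against the other cells gave -1.78 (adjusted p = 0.00083). The serine protease gene *Htra1* (chromosome 7, 130936111-130985660) stood at 112 and 109, 43.0 and 27.8, and 29.0 and 31.9 CPM, a log2 difference of -1.62 ± 0.20 (adjusted p = 0.0040). In the other cells *Htra1* went from 41.9 and 40.1 CPM in control XY to 59.3 and 47.7 in dKO XY, and the 2 differences were -1.97 apart (adjusted p = 1.1e-05). Both genes had dKO XY beside control XX and apart from control XY, on whose libraries they were picked.

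*Mmp2* (gelatinase A) stood at 99.8 and 103 CPM in control XY, 31.5 and 46.6 for dKO XY and 41.8 and 40.4 for control XX, a log2 difference of -1.40 ± 0.17 between dKO XY and control XY (adjusted p = 0.0040). *Ltbp3*, whose protein stores latent TGF-β in the matrix, stood at 45.2 and 47.6, 14.6 and 17.3, and 19.5 and 15.4 CPM (-1.56 ± 0.17, adjusted p = 0.0023). Also lower were the integrin subunit *Itgav* (-1.02), the metalloprotease inhibitor *Timp2* (-0.92), *Vwa1* (-0.82), the laminin subunit *Lamc3* (-2.11) and the crosslinking enzyme *Tgm2* (-1.07). *Itgav* had dKO XY at 20.3 and 22.4 CPM, above the 15.9 and 14.8 of control XX, whereas *Tgm2* had 14.7 and 19.2, below the 39.9 and 32.3 of control XX. In control XY the other cells had as much *Mmp2* (108 and 110 CPM), *Ltbp3* (50.4 and 52.3) and *Timp2* (108 and 111) as endothelial cells. The difference of endothelial cells exceeded theirs for *Ltbp3* (-0.94, adjusted p = 0.0037), and the test missed the threshold for *Mmp2* (-0.84, adjusted p = 0.12) and *Timp2* (-0.53, adjusted p = 0.077).

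*Slco2a1*, which takes up prostaglandins, stood at 171 and 186 CPM in control XY, 90.7 and 73.3 for dKO XY and 97.2 and 64.4 for control XX (-1.12 ± 0.18, adjusted p = 0.029), and at most 0.701 CPM in the other cells. *Abcb1a*, the efflux pump P-glycoprotein, stood at 34.8 and 39.6, 16.2 and 17.7, and 37.5 and 31.7 CPM (-1.15 ± 0.16, adjusted p = 0.012). *Procr*, the protein C receptor, stood at 78.3 and 75.9, 44.5 and 40.0, and 75.2 and 76.3 CPM (-0.86 ± 0.14, adjusted p = 0.024). *Abcb1a* and *Procr* were thus lowest in dKO XY with the controls close to each other, and dKO XY was also below control XX by -1.09 (adjusted p = 0.0037) and -0.88 (adjusted p = 0.0043). *Calcrl*, the receptor of adrenomedullin, stood at 154 and 140, 89.9 and 89.0, and 111 and 111 CPM (-0.71 ± 0.12, adjusted p = 0.038), and was the only called gene among 20 core endothelial genes, against 0.368% of all genes.

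Few of the genes that rose in dKO XY stood above the level of the other cells. *Fabp4* (chromosome 3, 10204088-10208576), a fatty acid carrier of capillaries, stood at 5.02 and 3.72 CPM in control XY, 26.9 and 51.6 for dKO XY and 43.6 and 36.5 for control XX, with at most 0.704 CPM in the other cells. The log2 difference was 3.18 ± 0.33 (adjusted p = 0.0019) for dKO XY and 3.29 ± 0.33 (adjusted p = 0.00045) for control XX, each against control XY, and dKO XY overlapped control XX. *Tinagl1*, a matricellular protein gene, stood at 49.6 and 46.1, 92.5 and 91.7, and 99.7 and 79.8 CPM (0.95 ± 0.14, adjusted p = 0.018). *Apoe* stood at 36.2 and 49.5, 87.8 and 87.1, and 81.6 and 64.2 CPM (1.00 ± 0.17, adjusted p = 0.037), below the 228 to 370 CPM of the other cells. *Fabp4* was present in few cells, with a UMI in 0.714% to 15.97% of thinned cells by library.

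**Figure D4:**
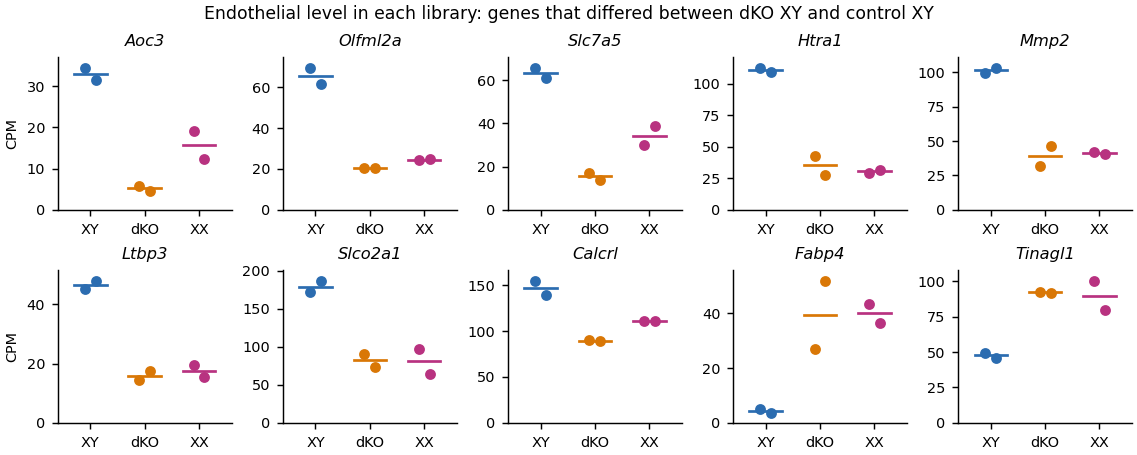
CPM in endothelial cells for 8 genes that fell and 2 genes that rose in dKO XY relative to control XY; dots are libraries, bars the mean of 2, and colours the groups. *Olfml2a*, *Htra1*, *Mmp2*, *Ltbp3*, *Slco2a1*, *Fabp4* and *Tinagl1* have dKO XY near control XX, while *Aoc3*, *Slc7a5* and *Calcrl* have dKO XY below both controls.

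Of the 22 genes that rose, 4 were haemoglobin genes and 5 were markers of the germ cell list. Also among the 22 were *Sycp1*, *Smc1b*, *Stk31*, *Fkbp6*, *Tex19.1* and *Six6os1*, known from germ cells and meiosis, as well as *Rhox5* and *Rpl39l*, each of them at a higher CPM in the other cells of both dKO XY libraries than in the endothelial cells. *Hba-a1* stood at 3.35 and 6.40 CPM in control XY, 122 and 99.7 for dKO XY and 25.02 and 13.97 for control XX (4.41 ± 0.30, adjusted p = 0.00013), and at 24.9 and 32.3, 142 and 84.3, and 179 and 112 CPM in the other cells. It had a UMI in 3.16% and 7.14% of thinned control XY endothelial cells, 11.2% and 8.45% of dKO XY, 5.94% and 7.56% of control XX and 7.71% of macrophages. *Dazl*, a germ cell RNA-binding protein gene, stood at 0.836 and 0.595, 26.3 and 15.98, and 4.91 and 1.88 CPM in endothelial cells and at 3.12 and 2.42, 85.9 and 81.5, and 93.0 and 80.0 CPM in the others. The germ cell list was at low counts in both control groups, and most of it passed the filter on low counts through dKO XY, so its count of calls is a description. The log2 difference of *Dazl* was 4.94, and 2.99 without cells holding other markers. The dKO XY rise of *Dazl* differed from that of the other cells by 0.05 (adjusted p = 1.0). Both kinds of gene are known from other cells than endothelium, and whether free RNA or joined cells gave these UMIs was not tested.

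Of all genes, 0.368% were called for dKO XY against control XY, so that lists of this size would hold about none at that share. None of 6 VEGF and angiopoietin receptors, 10 arterial, 5 venous, 12 Notch, 20 transcription factor, 16 basement membrane, 14 junction, 8 Wnt response and 19 secreted signal genes tested was called, with list medians from -0.32 to -0.05 against 0.01 over all genes. Without cells holding other markers, where 0.841% of all genes were called, *Hey1*, a Notch target on the arterial and Notch lists, was higher (1.18, adjusted p = 0.018), and *Vwf*, von Willebrand factor on the venous list (-1.48, adjusted p = 0.020), and *Igfbp7* on the basement membrane list (-0.92, adjusted p = 0.031) were lower. *Vwf* does not stand for venous cells here. In control XY it stood at 118 and 59.8 CPM in cells with 2 or more arterial genes and 7.92 and 5.12 in the others. The values were 19.2 and 88.0 against 3.90 and 14.1 for dKO XY, and 39.2 and 23.1 against 38.1 and 28.9 for control XX. Its dKO XY libraries were apart, at 14.4 and 35.2 CPM without cells holding other markers. None of 23 genes of the TGF-β, BMP and activin pathway was called in either set of cells, with a median of -0.03. Its members included the receptors *Acvrl1* at 64.1 and 70.4 CPM in control XY and 69.7 and 68.8 in dKO XY and *Acvr2b* at 20.9 and 28.9 against 24.2 and 31.6, and the BMP target *Id1* at 326 and 281 against 495 and 292. The log2 differences were 0.04 ± 0.13, 0.12 ± 0.20 and 0.38 ± 0.23. *Acvr1*, a receptor that AMH signalling uses, stood at 32.3 and 32.1 CPM in control XY and 23.2 and 29.1 in dKO XY. *Amhr2*, the AMH receptor, stood at 3.07 and 4.61, 13.2 and 25.1, and 13.6 and 4.38 CPM in endothelial cells, below the other cells of every library (15.6 to 239 CPM).

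Between control XX and control XY, 490 of the 12223 genes differed (4.01%), 158 higher in control XX (1.29%) and 332 lower (2.72%). Of the higher genes, 99 of 158 were above the other cells in both control XX libraries, and they included transcription factors and genes of caveolae and lipid uptake. Of the lower genes, 72 of 332 were above the other cells in both control XY libraries. On cells without markers of another type 348 of 11054 genes were called (3.15%), 153 higher (1.38%) and 195 lower (1.76%), including 258 of the 490. The count was 72 without control XY 2, 168 without control XX 1, 259 without control XY 1, and 792 and 766 without dKO XY 1 and dKO XY 2, which share in the estimate of spread. The sex chromosome genes followed the labels, as 7 of 10 were called in the direction of the sex.

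Among the genes higher in control XX were the transcription factors *Tcf15*, *Foxf1* and *Irx3*. *Tcf15* (chromosome 2, 152143561-152149097), a basic helix-loop-helix factor known from endothelium of lipid-handling tissues, stood at 47.4 and 38.2 CPM in control XY, 79.2 and 70.1 for dKO XY and 215 and 180 for control XX. Control XX was above control XY by 2.26 ± 0.16 on the log2 scale (adjusted p = 3.1e-05), and dKO XY lay between, below control XX by -1.45 ± 0.15 (adjusted p = 0.00043). Its difference from control XY of 0.82 ± 0.16 missed the threshold (adjusted p = 0.066) and passed it without cells holding other markers (0.95, adjusted p = 0.0045). *Tcf15* had a UMI in 60.7% and 54.6% of thinned control XX cells and in 20.4% to 31.0% of the cells of the XY libraries, against 2.32% of pericytes.

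*Foxf1* (chromosome 8, 121084386-121088144), a forkhead factor of lung and visceral vessels, stood at 5.58 and 4.17 CPM in control XY, 2.64 and 2.35 for dKO XY and 23.9 and 26.3 for control XX (2.44 ± 0.24, adjusted p = 0.00037), and was the only gene called of 20 endothelial transcription factors (4.01% of all genes were called). *Irx3* (chromosome 8, 91798525-91802067) stood at 30.9 and 24.5, 30.9 and 28.3, and 84.5 and 87.8 CPM (1.70 ± 0.16, adjusted p = 0.00026). The gene is also a granulosa marker, with 235 and 122 CPM in the other cells of control XX and 0.162 and 0.235 CPM in those of control XY, and the part of granulosa RNA in the control XX level was not tested. Without cells holding other markers *Irx3* remained higher in control XX by 1.34 (adjusted p = 0.00019). For both factors dKO XY was near or below control XY and apart from control XX.

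Of 11 capillary transport genes tested, which include those of lipid uptake and caveolae, 5 were higher in control XX against 1.29% of all genes (*Cd36*, *Gpihbp1*, *Cav2*, *Ptrf* and *Sdpr*) and 1 lower (*Slc7a5*), with a median of 0.58 against 0.00 for all genes. *Gpihbp1* (chromosome 15, 75596628-75599481) stood at 228 and 228 CPM in control XY, 355 and 288 for dKO XY and 423 and 479 for control XX (1.03 ± 0.15, adjusted p = 0.0046). For dKO XY against control XY its difference was 0.50 (adjusted p = 0.25), and it was called higher without cells holding other markers (0.64, adjusted p = 0.024). The fatty acid translocase *Cd36* stood at 11.7 and 4.31, 9.14 and 13.6, and 28.8 and 31.3 CPM (2.08 ± 0.34, adjusted p = 0.0082). *Cav2*, a caveolin gene, stood at 70.0 and 65.2, 75.4 and 69.0, and 96.6 and 115 CPM (0.70 ± 0.15, adjusted p = 0.026). *Sdpr*, the older name of *Cavin2*, and *Ptrf*, that of *Cavin1*, encode coats of caveolae. *Sdpr* stood at 204 and 148, 173 and 209, and 359 and 326 CPM (1.01 ± 0.16, adjusted p = 0.0063), and *Ptrf* at 121 and 124, 117 and 125, and 177 and 158 CPM (0.49 ± 0.12, adjusted p = 0.049).

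*Fam101b*, a regulator of actin filaments, stood at 84.5 and 73.5, 103 and 117, and 246 and 226 CPM (1.63 ± 0.13, adjusted p = 8.9e-05). All 4 XY libraries were below both control XX libraries. *Cd38*, *Lgals9* and *Ifitm3* rose by 1.21, 1.17 and 1.19, and the junction gene *Jam2* by 0.75.

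**Figure D5:**
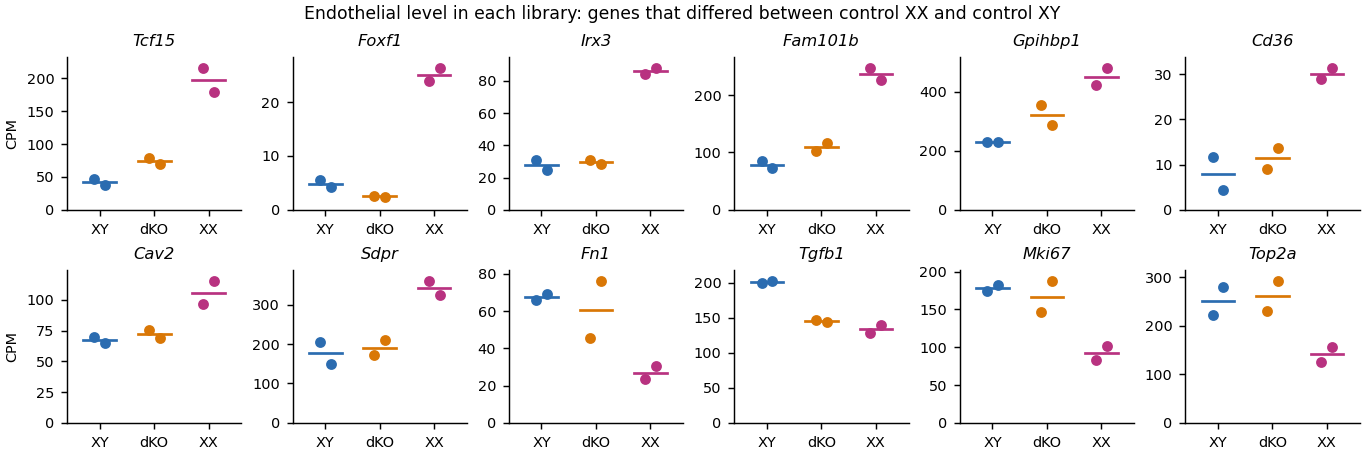
CPM in endothelial cells for 8 genes higher and 4 genes lower in control XX than in control XY; dots are libraries, bars the mean of 2, and colours the groups. *Irx3*, *Cav2* and *Sdpr* have dKO XY overlapping control XY, *Foxf1* has dKO XY below both controls, and *Tcf15* and *Gpihbp1* have dKO XY between the controls.

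Several genes described above for dKO XY were also lower in control XX. Both comparisons use the same 2 control XY libraries, so the 2 sets of differences are not independent. *Olfml2a* fell by 1.36, *Htra1* by 1.82, *Mmp2* by 1.26, *Ltbp3* by 1.35 and *Slco2a1* by 1.09 on the log2 scale, in the CPM given above. Fibronectin (*Fn1*) stood at 65.8 and 69.3 CPM in control XY, 45.3 and 75.9 for dKO XY and 23.3 and 30.6 for control XX (-1.29 ± 0.23, adjusted p = 0.012). *Nid2*, a linker of basement membranes, stood at 135 and 155, 119 and 129, and 94.8 and 83.6 CPM (-0.66 ± 0.13, adjusted p = 0.021). These were the only 2 of 16 basement membrane genes called, against 2.72% of all genes called lower, with a median of -0.34. *Tgfb1*, the ligand, stood at 200 and 202, 146 and 144, and 129 and 139 CPM (-0.54 ± 0.12, adjusted p = 0.038). For *Tgfb1* the 2 dKO XY libraries lay between the controls, and the difference of dKO XY from control XY was not called.

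All 6 Leydig markers were lower in control XX, which is a description, since most of them passed the filter on low counts through the XY libraries, where they were high. *Cyp11a1*, the enzyme that starts steroid synthesis, had no UMI in control XX and 1609 in control XY, at least 684-fold lower by a floor of 3 counts over the group. The interstitial list had 6 of 7 markers lower (2.72% of all genes were), with a median of -2.41. Without cells holding other markers, 3 of the 4 still tested were lower (1.76% of all genes). Both counts are descriptions too. The summed list ranged from 222 to 464 CPM over the XY libraries, against 29.8 and 133 CPM for the ovary libraries. The same markers also helped to choose the cells that were removed. *Cyp17a1* had a UMI in 21.3% to 26.3% of thinned endothelial cells of the XY libraries, against 21.4% of macrophages and 23.6% of pericytes of all libraries together, and its source was not tested. The other rule-chosen falls were of *Hsd3b1*, *Ren1*, *Inha*, *Defb19*, *Dcn*, *Col1a2*, *Gpc3* and *Acta2*, and for example *Gpc3* stood at 50.2 and 63.4 CPM in endothelial cells and at 591 and 511 CPM in the other cells of control XY. *Cxcl12*, a chemokine gene, was lower in control XX by -1.46 ± 0.31 (adjusted p = 0.027) but 0.36 higher without cells holding other markers (adjusted p = 0.57), so its direction turned.

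Of 14 cell cycle genes 2 were called lower in control XX, against 2.72% of all genes, with a median of -0.31. *Mki67*, a marker of cycling cells, stood at 175 and 182 CPM in control XY, 147 and 187 for dKO XY and 83.8 and 102 for control XX (-0.90 ± 0.16, adjusted p = 0.0096). *Top2a*, a topoisomerase of dividing cells, stood at 222 and 280, 231 and 291, and 126 and 156 CPM (-0.79 ± 0.17, adjusted p = 0.030). None of the 14 was called between dKO XY and control XY (median 0.03). In dKO XY against control XX, 3 of the 14 were higher, against 3.01% of all genes (*Mki67*, *Top2a* and *Ccnb1*). *Mki67* in the other cells also went from 187 and 201 CPM in control XY to 74.1 and 102 in control XX, and its difference was 0.32 apart from theirs (adjusted p = 0.15).

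By cells, 48.4% and 67.1% of thinned control XY endothelial cells, 62.3% and 57.0% of dKO XY and 26.5% and 37.8% of control XX had a UMI of at least 2 of 7 cycling genes. Macrophages of all libraries had 42.3% and pericytes 43.5%. The difference of 25.6 percentage points between control XX and control XY had an exact permutation p of 0.333, the smallest allowed. Without thinning the shares were 74.7% and 85.7%, 85.6% and 86.0%, and 56.5% and 60.5%. Free RNA of dividing cells also enters such counts, and its part was not tested.

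Between dKO XY and control XX, 489 of the genes differed (4%), 368 higher in dKO XY (3.01%) and 121 lower (0.99%). Of the 368 higher genes 23 were above the other cells in both dKO XY libraries, and of the 121 lower genes 91 were above them in both control XX libraries. Without cells holding other markers the counts were 117 (1.06%) and 100 (0.905%) of 11054 (1.96% in all), so that the share of higher genes went down, and without control XX 1 the total was 209 and without dKO XY 1 761. Of the 11 capillary transport genes 5 were lower in dKO XY than in control XX (*Cd36*, *Cav2*, *Ptrf*, *Sdpr* and *Slc7a5*), and without cells holding other markers 1 (*Slc7a5*). Lower in dKO XY beside *Tcf15*, *Foxf1* and *Irx3* were *Fam101b* (-1.15 ± 0.13, adjusted p = 0.00073) and the homeobox gene *Hhex*, which stood at 60.7 and 51.3 CPM in dKO XY against 106 and 93.8 in control XX (-0.88 ± 0.17, adjusted p = 0.017). *Tgfbi*, a matrix adhesion protein gene, stood at 23.5 and 25.4 against 72.1 and 70.7 CPM (-1.60 ± 0.29, adjusted p = 0.011), *Cthrc1*, a secreted collagen-associated gene, at 38.5 and 33.6 against 76.5 and 81.1 CPM (-1.17 ± 0.19, adjusted p = 0.0067) and *Irf1*, an interferon-regulated factor, at 43.7 and 17.2 against 81.3 and 143 CPM (-1.87 ± 0.43, adjusted p = 0.036). The control XY libraries spanned 19.2 to 46.9 CPM for *Tgfbi* and 35.1 to 73.5 CPM for *Irf1*.

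Higher in dKO XY than in control XX were 2 of 7 tip cell genes, those of the cells that lead a growing vessel, against 3.01% of all genes. Without cells holding other markers 3 of the 5 still tested were called (*Esm1*, *Apln* and *Kcne3*), against 1.06%. *Esm1*, an endothelial proteoglycan gene induced by VEGF, stood at 24.8 and 37.6 CPM in control XY, 42.3 and 47.4 for dKO XY and 19.3 and 15.6 for control XX (1.29 ± 0.20, adjusted p = 0.0053). *Kcne3*, a potassium channel subunit gene, stood at 12.3 and 38.5, 48.8 and 70.8, and 8.14 and 8.96 CPM (2.75 ± 0.40, adjusted p = 0.0036). The control XY libraries were far apart for *Kcne3*, and its difference between dKO XY and control XY (1.14 ± 0.36) was not called (adjusted p = 0.28) and passed the threshold at 1.41 without cells holding other markers (adjusted p = 0.035). Between the controls the log2 differences of *Esm1* and *Kcne3* were -0.81 and -1.62 (adjusted p = 0.062 and 0.063), and *Kcne3* was called lower in control XX without cells holding other markers (-1.64, adjusted p = 0.020). The tip cell list had medians of 0.98 against control XX and 0.48 against control XY, and its lowest member stood at -0.60 against control XX. Of thinned control XY cells, 6.32% and 17.9% had 2 or more tip cell genes. The shares were 17.2% and 22.5% for dKO XY and 8.22% and 9.24% for control XX. By the same count 10.4% of macrophages and 7.93% of pericytes would be tip cells, against 14.0% of all thinned endothelial cells.

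In a fit of both cell classes with the library as a block, the difference between dKO XY and control XY was itself different between endothelial and all other cells for 382 of 18103 genes (2.11%), and that between control XX and control XY for 2014 (11.1%). Of the genes called in endothelial cells, 9 of the 23 lower and 6 of the 22 higher in dKO XY passed this test in the same direction. They included *Olfml2a*, *Htra1*, *Slc7a5* and the haemoglobin genes. For control XX, 57 of 158 higher and 86 of 332 lower genes passed, among them *Tcf15* (3.70 apart, adjusted p = 7.1e-09), *Foxf1* (3.44, adjusted p = 0.00023), *Jam2* (2.18, adjusted p = 1.1e-07) and *Fam101b* (1.58, adjusted p = 1.3e-07). Since the other cells are a mixture whose make-up differs between groups, a gene can pass through them alone. The called genes were picked on the same endothelial sums that this test uses, so how many of them passed is a description. The number for dKO XY was 173 without control XY 1, 742 without dKO XY 1 and 1066 and 1045 without control XX 1 and control XX 2, and that for control XX was 1255 without control XY 2.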

How the data were processed

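For each of the 6 libraries the authors deposited a matrix of raw UMI counts, genes by barcodes, made with Cell Ranger on mm10 per the labels; a correction for barcode swapping is described in the study's methods. Counts were merged by symbol over 26251 genes, without normalization. The filter on cells is that of the study's methods, and doublets were not removed by a caller. The members, gene lists and tests were chosen with earlier results of these data known.

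UMIs were summed over the endothelial cells of a library, tested with edgeR 4.0.16 in R 4.3.3 (filterByExpr, TMM, glmQLFit and glmQLFTest, all 6 libraries, group only) and adjusted by Benjamini-Hochberg over 12223 genes; genes under 0.05 were called. The p-values rest on the spread between the 2 libraries of a group, in an estimate shared by all 6 libraries and drawn toward that of other genes. The 7 genes of the rule were given as a description, with no test. Named genes were the list members, the 20 leading genes, and per comparison the 10 largest rises and falls among calls whose mean log2 CPM reached 5. Left out of these rises and falls were the rule genes and the 10 sex chromosome genes checked against the labels, but not other genes of those chromosomes. *Aoc3*, *Lamc3*, *Ltbp3*, *Itgav*, *Tgm2*, *Vwa1*, *Abcb1a* and *Fabp4*, *Amhr2*, *Glul*, *Igfbp3*, *Sycp1*, *Smc1b*, *Stk31*, *Fkbp6*, *Tex19.1*, *Six6os1*, *Rhox5* and *Rpl39l*, and for control XX *Olfml2a*, *Htra1*, *Mmp2*, *Slco2a1* and the genes of the closing paragraphs on interferon and sterol genes, fell outside that rule and were chosen after their values were seen. Some genes are not reported here. Shares were compared by exact permutation over libraries (scipy 1.17.1). Coordinates are those of GENCODE M21 genes (GRCm38), matched by symbol for 11355 of the 12223. On simulated counts for dKO XY against control XY (12034 genes, 200 changed), 79% of 2-fold and 98% of 4-fold changes were recovered and 6.35% of calls were false. The changed genes were drawn from those above a minimum mean count, and each gene was given the spread typical of its level. The rates do not cover changes of genes at lower counts or genes with a wider spread. Alternatives were DESeq2 1.42.0, a replicate block, all genes without a filter, fits of the compared groups alone, other marker and gene minimums, cells without markers of another type (at least 2 UMIs of at least 3 markers) and leaving out each library.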

Additional observations from a re-analysis of the deposited data

How the results depend on the processing

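The replicate numbers did not pair the libraries (correlations of the deviations of same-numbered libraries 0.044, -0.0089 and -0.22), and with the replicate block 54, 442 and 476 genes were called for dKO XY against control XY, control XX against control XY and dKO XY against control XX, in place of 45, 490 and 489. Without the filter on low counts the 3 counts were 469, 1110 and 1231. With at least 3 of the 6 markers they were 137 for dKO XY against control XY and 1374 for dKO XY against control XX, and without cells holding markers of another type 93 and 217. DESeq2 called 71 genes for dKO XY against control XY. Leaving out each library gave 11 to 180, 72 to 792 and 209 to 761 genes. For the difference of dKO XY from control XY between endothelial and other cells, 382 genes became 844 without the filter, 208 with at least 3 markers, 773 without cells holding other markers and 173 to 1066 without a library; for control XX the leave-one-out range was 1255 to 2838. The causes of these moves were not tested.

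The share of endothelial cells became 1.72% and 3.58% with at least 3 markers and 1.09% and 2.09% without cells holding other markers, for control XY and dKO XY. Leaving out 1 of the 2 libraries of a group only returns the share of the other, so it is no further check. These shares were 1.39% to 1.63% in control XY, 2.51% to 3.32% in dKO XY and 2.49% to 4.18% in control XX. The arterial share with 3 or more genes was 34.3%, 31.5% and 33.3% in control XY, dKO XY and XX controls. Without thinning it was 90.6%, 91.4% and 92.1%, with at least 5 markers 61.5% and 57.5% in control XY and dKO XY, and without cells holding other markers 59.2%, 61.9% and 63.5%. The cycling share was 48.1% with 3 or more genes in dKO XY and, without thinning, 80.2%, 85.8% and 58.5%. By library it was 26.5% to 37.8% in control XX, 48.4% to 67.1% in control XY and 57.0% to 62.3% in dKO XY. Leaving out a library returns these same values.

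Of the named genes that were called, *Cxcl12* turned from -1.46 to 0.36 for control XX against control XY without cells holding other markers. The other called genes kept their sign in every alternative in which they were tested. List members that were not called are outside this count and some turned. The lowest log2 difference of the Sertoli list for dKO XY against control XY went from 0.69 to -0.29 without cells holding other markers. The call was kept in every alternative in which the gene was tested by 7 of 45 genes for dKO XY against control XY, 26 of 91 for control XX against control XY and 32 of 73 for dKO XY against control XX. On simulated counts for dKO XY against control XY, 79% of 2-fold changes were recovered among genes above a minimum mean count. Smaller changes, and changes of genes at lower counts, can be missed at this depth.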

Other observations

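The 6 genes *Isg15*, *Rtp4*, *Xaf1*, *Usp18*, *Rsad2* and *Ifi44*, known to respond to interferon, were called higher in control XX endothelial cells. *Isg15* stood at 9.48 and 11.6 CPM in control XY, 17.8 and 13.8 for dKO XY and 31.7 and 52.1 for control XX (log2 difference between the controls 2.00 ± 0.28, edgeR adjusted p = 0.0035), *Rtp4* at 11.99 and 12.3, 23.5 and 12.4, and 33.6 and 57.9 CPM (1.94 ± 0.34, adjusted p = 0.011) and *Xaf1* at 20.6 and 13.8, 23.0 and 18.5, and 36.5 and 45.2 CPM (1.32 ± 0.23, adjusted p = 0.0094). *Usp18*, *Rsad2* and *Ifi44* were higher by 2.49, 2.21 and 1.51. The other cells of control XX were also above those of both XY groups, with *Isg15* at 14.3 and 8.91 CPM against 1.84 to 2.09. These genes were picked after their values were seen, so they are no test of a pathway.

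The 5 genes *Sqle*, *Cyp51*, *Msmo1*, *Hmgcs1* and *Idi1*, which act in cholesterol synthesis and were picked after their values were seen, were called lower in control XX. *Sqle*, the squalene epoxidase, stood at 48.8 and 40.8 CPM in control XY, 40.5 and 46.4 for dKO XY and 18.7 and 15.4 for control XX (-1.32 ± 0.17, edgeR adjusted p = 0.0021). *Cyp51*, *Msmo1*, *Hmgcs1* and *Idi1* were lower by -1.71, -1.63, -1.19 and -1.19. Without cells holding markers of another type the log2 differences of *Sqle*, *Cyp51*, *Msmo1*, *Hmgcs1* and *Idi1* were -1.25, -1.36, -1.14, -1.04 and -0.91. The other cells, which hold the Leydig cells of the XY gonads, had more of each, with *Msmo1* at 349 and 362 CPM in control XY, 229 and 222 for dKO XY and 85.8 and 66.1 for control XX. The part of their RNA in these values was not tested.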
